A study of Mus musculus with 6 samples.

Results

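Sncb and Sncg encode beta-synuclein and gamma-synuclein, small presynaptic and axonal proteins, and they were taken by symbol as 2 of the 23079 rows of a mouse gene count table; other members of the family are not analysed here. The knockdown group (3 libraries) received adeno-associated virus of serotype 1 carrying a hairpin RNA against Satb1 with EGFP, and the control group (3 libraries) received the same virus with a scrambled hairpin and EGFP. All libraries came from midbrain dopaminergic neurons of Dat bacTRAP mice on a C57BL/6 background, a line with a tagged ribosomal protein in cells that use the dopamine transporter promoter, aged 4 months. The substantia nigra pars compacta and ventral tegmental area were dissected from slices of 1 mm. The labels name 3 mice for the 6 libraries without tying libraries to mice, name total RNA without stating a ribosome capture, and call the constructs siRNA in the titles and shRNA in the protocol, so the p-values rest on library-to-library spread, which may be technical.

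Synucleins are small proteins of neurons with an N-terminal region of imperfect repeats that folds into a helix on curved lipid membranes, and they gather on synaptic vesicles. Beta-synuclein is found at presynaptic terminals across the brain and lacks part of the hydrophobic stretch that drives aggregation in the family. Gamma-synuclein is found mainly in axons and cell bodies of peripheral and motor neurons, retinal ganglion cells and brainstem monoaminergic neurons, midbrain dopamine neurons among them. In mice, beta-synuclein has been linked to dopamine uptake into vesicles.

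Libraries held between 147486754 and 164554674 counts in the knockdown group and between 160792736 and 170351145 in the control group. Satb1, the targeted chromatin organiser that binds AT-rich DNA, had 82.9, 166 and 61.2 CPM (library-scaled counts, by the trimmed mean of M-values or TMM) in knockdown libraries 1 to 3, against 351, 350 and 320 CPM in control libraries 1 to 3. Knockdown library 2 kept the most Satb1. The neurons carried their defining markers: Th, the enzyme that limits dopamine synthesis, ranked 30 in the knockdown group and 17 in the control group among 15754 tested genes by CPM per kilobase of exon. Of 12 dopamine neuron markers, 7 fell, 0 rose and 5 did not pass the test by edgeR, with 0 higher also at an unadjusted p under 0.05, by DESeq2 and by limma-voom; of all tested genes 12.6% fell and 8.48% rose. With total counts 6 of these markers were lower and 1 was higher, where 972 of all 16766 tested genes were lower and 2769 higher. Scaled to pan-neuron markers 2 were lower and 2 higher, where 361 of all tested genes were lower and 5279 higher.

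In GRCm38 (mm10), Sncb (NCBI gene 104069) occupies bases 54758860 to 54766622 of chromosome 13, and Sncg (NCBI gene 20618) bases 34370274 to 34374669 of chromosome 14, both on the minus strand. Exons of neither gene overlap another gene in the GENCODE M21 basic annotation, whose merged exons come to 1534 bases for Sncb and 852 bases for Sncg. Bases upstream of both genes are printed 5′ to 3′ on the minus strand because the study lowered a DNA-binding protein, and they were taken from RefSeq promoter windows of GRCm38.p6. The printed stretches, chr13:54766623-54766845 for Sncb and chr14:34374790-34374919 for Sncg, stop before the first base of any transcript of the gene in RefSeq or GENCODE, which for Sncg lies 120 bases upstream of the gene end given here. Capitals mark matches on either strand to the motifs searched, which were the TATA box TATAAA, the CCAAT box, the GC box GGGCGG and the sequence TGACG that CREB-type factors bind.
Sncb: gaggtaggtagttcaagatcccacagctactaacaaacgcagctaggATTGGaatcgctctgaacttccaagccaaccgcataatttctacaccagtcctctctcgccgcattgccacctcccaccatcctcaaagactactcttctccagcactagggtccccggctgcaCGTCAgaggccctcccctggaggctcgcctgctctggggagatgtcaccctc
Sncg: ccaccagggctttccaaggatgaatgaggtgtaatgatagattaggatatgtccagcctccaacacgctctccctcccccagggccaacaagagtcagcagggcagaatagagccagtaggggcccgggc
Both whole windows, 250 bases before to 50 after the transcript start used by RefSeq, were less AT-rich than the median window: 38.0% A or T for Sncb and 38.7% for Sncg, against a median of 47.3% over 32851 windows. Neither window held TATAAA, which was found in 13.6% of all windows. GGGCGG occurred 2 times in the Sncb window and 1 time in the Sncg window (35.7% of all windows hold it), and TGACG occurred 1 time in each (20.8%). CCAAT occurred 1 time, in the Sncb window, 203 bases upstream of the start (37.4%). The matches to GGGCGG in both windows and to TGACG in the Sncg window lie in the part not printed. The motifs do not overlap each other, and a match is only a match of letters.

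Gamma-synuclein was the more abundant of the 2 transcripts in every library. Per kilobase of exon, Sncg stood at 432, 533 and 433 CPM per kb in knockdown libraries 1 to 3, against 604, 569.6 and 578 CPM per kb in control libraries 1 to 3. Sncb stood at 78.0, 104 and 59.4 CPM per kb in knockdown libraries 1 to 3, against 93.6, 88.1 and 124 CPM per kb in control libraries 1 to 3. Sncg ranked 117 among 15754 genes by the knockdown mean and 103 by the control mean, which placed it in the top 0.743% and 0.654%. Sncb ranked 842 and 757, in the top 5.34% and 4.81%. The annotation used for counting is not given in the sources used here, so these lengths are those of GENCODE.

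The comparison of knockdown with control asks what lowering Satb1 does to the transcripts of dopaminergic neurons, and Sncg fell in it. Sncg had 368, 454 and 369 CPM in knockdown libraries 1 to 3, against 514.5, 485 and 493 CPM in control libraries 1 to 3. Every knockdown library was below every control library, with knockdown library 2 nearest to the controls. The mean was 397 ± 49.3 CPM in the knockdown group and 497.5 ± 15.2 CPM in the control group (SD, n = 3 each). The log2 fold change was -0.33 ± 0.10 (SE; 95% interval -0.54 to -0.11), equal to a 1.25-fold decrease, with an adjusted p = 0.0322 in edgeR's quasi-likelihood test. Of 16766 genes tested, 21.1% were called at an adjusted p under 0.05, 12.6% as lower and 8.48% as higher, and 38.7% had groups that did not overlap, so a call of this kind was common in these libraries. For Sncg, 20.3% of the tested genes had a lower log2 fold change. In these bulk samples, fewer cells of a type and less RNA per cell cannot be told apart.

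Sncb had nearly the same mean difference as Sncg but did not pass the test. It had 119.7, 160.2 and 91.2 CPM in knockdown libraries 1 to 3, against 144, 135 and 189.8 CPM in control libraries 1 to 3. The groups overlapped: knockdown library 2 was above control libraries 1 and 2, knockdown library 3 was the lowest of the 6 libraries and control library 3 the highest. The mean was 124 ± 34.7 CPM in the knockdown group and 156 ± 29.4 CPM in the control group (SD, n = 3 each). The log2 fold change was -0.34 ± 0.18 (SE; 95% interval -0.72 to 0.05; edgeR quasi-likelihood test, adjusted p = 0.209). That interval includes the value of Sncg as well as 0.

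**Figure D1:**
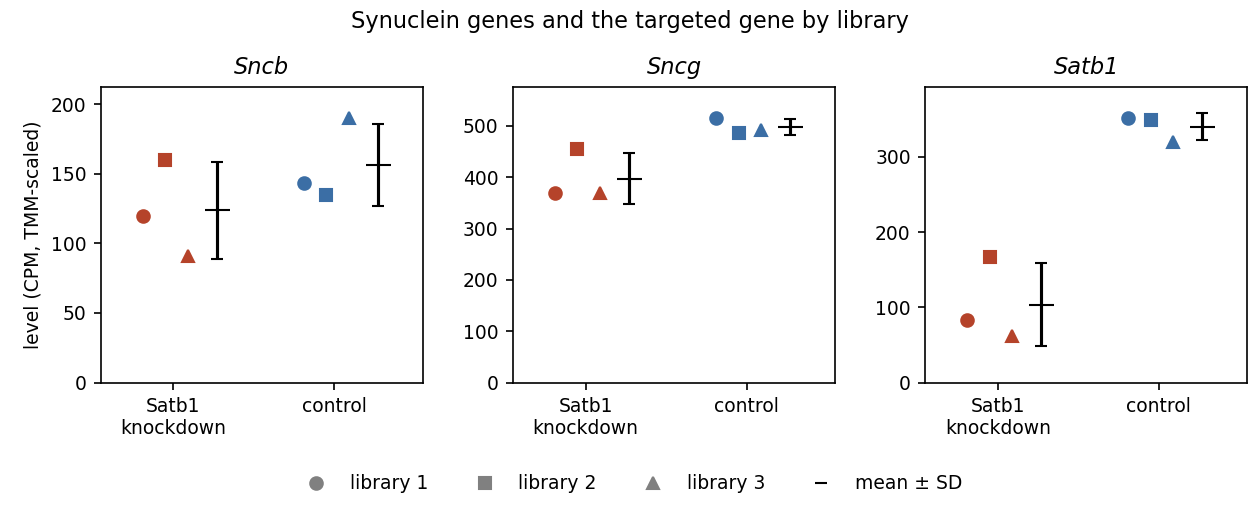
Levels of Sncb, Sncg and Satb1 in CPM (vertical axes from 0) in each of the 3 knockdown and 3 control libraries, with the symbol giving the library number and black bars the mean ± SD. The knockdown libraries of Sncg (368 to 454 CPM) lie below all control libraries (485 to 514.5 CPM), whereas the 2 groups of Sncb overlap.

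The 2 genes differed in how far replicate libraries spread. The coefficient of variation of Sncb was 28% in the knockdown group and 18.8% in the control group, and that of Sncg was 12.4% in the knockdown group and 3.06% in the control group. Counting error was far smaller, at most 0.830% for Sncb, whose lowest count was 14514, and 0.413% for Sncg, whose lowest count was 58740. Within groups the pooled SD on the log2 scale was 0.34 for Sncb and 0.13 for Sncg. Among the 2302 genes that averaged 100 CPM or more, 99.6% had a smaller within-group SD than Sncb and 58.0% a smaller one than Sncg, so Sncb was among the most variable transcripts of its abundance between replicate libraries.

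Whether the 2 genes responded differently was tested on their ratio, from which the scaling cancels. The log2 ratio of Sncg to Sncb counts was 1.62, 1.5 and 2.02 in knockdown libraries 1 to 3, against 1.84, 1.84 and 1.38 in control libraries 1 to 3. The highest and the lowest ratio both came from libraries numbered 3, and the groups overlapped. The mean log2 ratio was 1.71 ± 0.27 in the knockdown group and 1.69 ± 0.27 in the control group (SD, n = 3 each), a difference of 0.03 (two-sided exact permutation test, p = 1, where 3 against 3 libraries cannot go below 0.1). The spread of 0.27 leaves room for a difference of that order in either direction, and the difference was -0.13 without knockdown library 3 or without control library 3.

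The call for Sncg depended on single libraries. It was lost when a single library was left out in 5 of 6 cases: the log2 fold change was -0.26 without knockdown library 1 (adjusted p = 0.15), -0.26 without knockdown library 3 (adjusted p = 0.102), -0.30 without control library 1 (adjusted p = 0.0954), -0.34 without control library 2 (adjusted p = 0.0852) and -0.33 without control library 3 (adjusted p = 0.0727), all by edgeR. Without knockdown library 2, which kept the most Satb1 of the knockdown libraries, both genes passed the test by edgeR, Sncg at -0.43 (adjusted p = 0.00604) and Sncb at -0.56 (adjusted p = 0.031). Whether the Satb1 level of that library bears on these calls was not tested. For Sncb, the value was -0.14 without knockdown library 3 and -0.17 without control library 3.

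**Figure D2:**
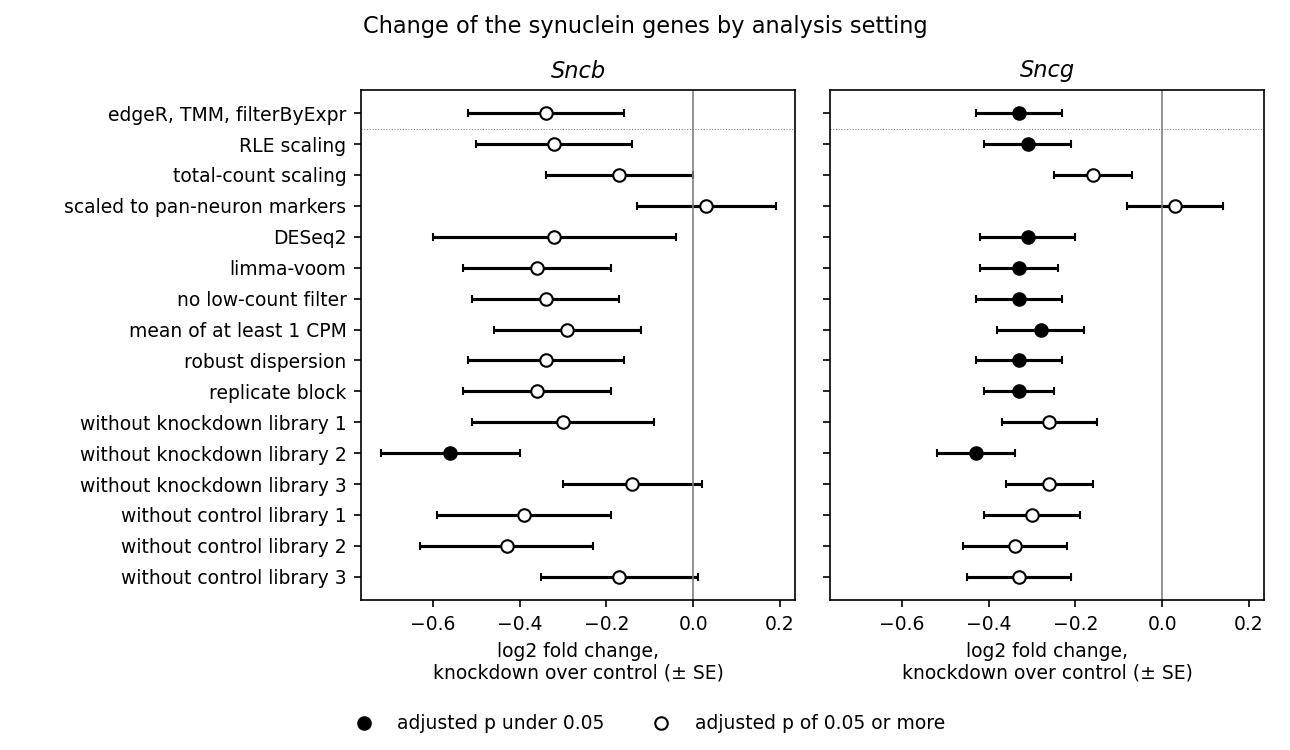
Log2 fold change of Sncb (left) and Sncg (right), knockdown over control, ± SE (horizontal axis), by analysis setting (rows, the main setting at the top), with filled points for an adjusted p under 0.05. Sncg is called in the main setting at -0.33, loses the call in 5 of 6 settings that leave out a library, and both genes sit at 0.03 when scaled to pan-neuron markers.

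The size and sign of both changes depended on the scaling of the libraries. With total counts in place of TMM, the median log2 fold change of all genes shifted by 0.17, Sncg stood at -0.16 (adjusted p = 0.245) and Sncb at -0.17 (adjusted p = 0.523). Relative to the median of all genes, Sncg was at -0.34 and Sncb at -0.35 under both scalings. Scaled to the geometric mean of 11 pan-neuron markers, which shifted the median of all genes by 0.37, both genes stood at 0.03 (edgeR, adjusted p = 0.835 for Sncg and 0.9 for Sncb). Against these neuron markers Sncg was at 0.04, 0.14 and -0.07 on the log2 scale in knockdown libraries 1 to 3, against 0.15, -0.05 and -0.10 in control libraries 1 to 3, so that the groups overlapped. Sncb was at 0.11, 0.32 and -0.40 in knockdown libraries 1 to 3, against 0.00, -0.21 and 0.21 in control libraries 1 to 3.

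Markers of neurons and glia moved in the same libraries. Of 11 tested pan-neuron markers, 7 fell, 1 rose and 3 did not pass, with a median log2 fold change of -0.31. That is 63.6% lower and 9.09% higher, against 12.6% and 8.48% of all genes. With total-count scaling 3 of these markers fell and 1 rose, where 972 of all 16766 tested genes fell and 2769 rose. Leaving out single libraries, 4 to 8 of the pan-neuron markers fell and 0 to 1 rose. Their summed level lay between 12300 and 13940 CPM in knockdown libraries and between 15860 and 17570 CPM in control libraries. Of 12 oligodendrocyte markers, 10 rose (83.3%, against 8.48% of all genes) and 0 fell, with a median of 0.60 and a summed level between 675 and 753 CPM in knockdown libraries, against 429 to 495 CPM in control libraries. Without single libraries, 7 to 9 of these oligodendrocyte markers rose and 0 fell. No marker of these lists was at 0. Per kilobase of exon, the oligodendrocyte gene Mbp, which encodes myelin basic protein, averaged 16.2 CPM per kb in the knockdown group and 10.6 CPM per kb in the control group. The part of these markers in the change of Sncg was not tested.

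**Figure D3:**
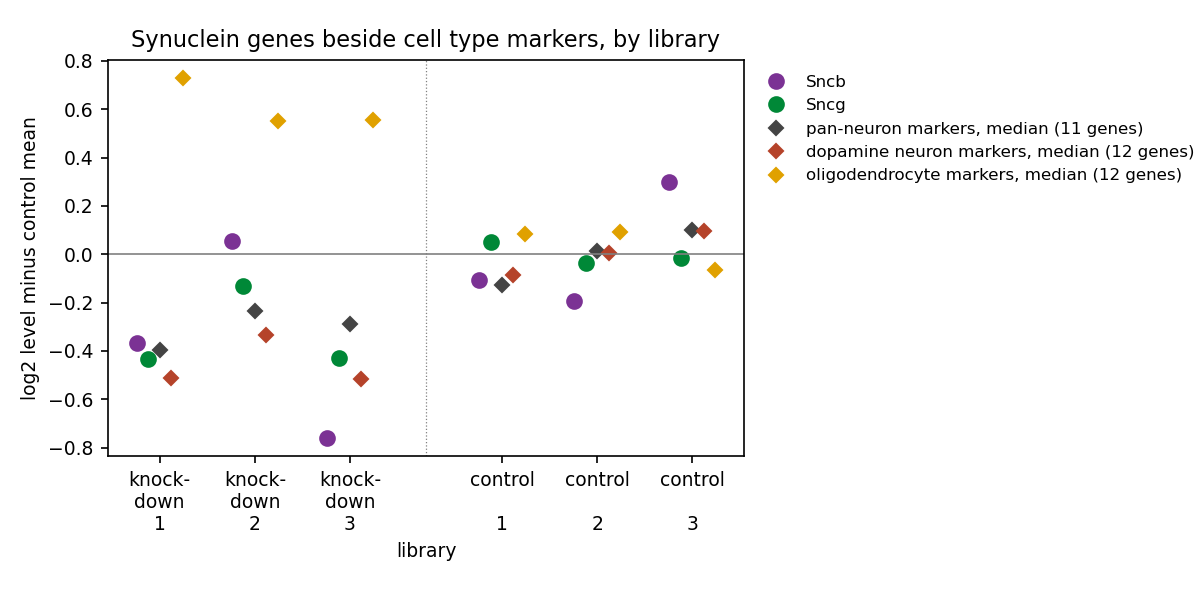
Log2 level of Sncb and Sncg (circles) and the median of 3 marker lists (diamonds), each minus the control mean (vertical axis), in the 6 libraries (horizontal axis). In the knockdown libraries Sncg lies between -0.43 and -0.13 and the pan-neuron median between -0.40 and -0.23, while the oligodendrocyte median lies between 0.55 and 0.73.

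Synucleins act beside the proteins of vesicle docking and fusion, and most called genes of that list fell. Of 27 tested genes, 12 fell, 1 rose and 14 did not pass (44.4% lower, against 12.6% of all genes), with a median log2 fold change of -0.31, against 0.01 for all genes. Vamp2, the vesicle SNARE protein, had 1637, 1776 and 1652 CPM in knockdown libraries 1 to 3, against 2545, 2530 and 2465 CPM in control libraries 1 to 3 (log2 fold change -0.57). The groups did not overlap. Syt1, the calcium sensor of release, fell by 0.86 on the log2 scale, Rab3a, a small GTPase of synaptic vesicles, by 1.00 and Sv2c, a vesicle glycoprotein of the basal ganglia, by 0.93. Syn3, which encodes a synapsin, rose (0.51). The chaperone gene Dnajc5, whose product CSP alpha keeps the SNARE protein SNAP25 folded, was at -0.27 and did not pass in this fit; it passed by DESeq2 (adjusted p = 0.0472), by limma-voom, with the replicate block and without knockdown library 2 (-0.35), and it stood at 0.09 when scaled to pan-neuron markers. With the scaling to pan-neuron markers, 3 genes of the list were lower, Vamp2 (-0.21) not among them, and 6 higher. With total counts 8 were lower and 2 higher. Of all 16766 tested genes, 361 were lower and 5279 higher with pan-neuron scaling, and 972 and 2769 with total counts.

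Most genes that make, package and take up dopamine fell. Of 12 tested genes of dopamine handling, 7 fell, 0 rose by edgeR (1 at an unadjusted p under 0.05, 1 by DESeq2 and 0 by limma-voom) and 5 did not pass (58.3% lower, against 12.6% of all genes), with a median of -0.47. Gch1, Slc6a3, Slc18a2, Th, Ddc and Drd2 are also dopamine neuron markers, so these counts are not separate from those of that list. Slc6a3, the dopamine transporter, had 2424, 3406 and 2363 CPM in knockdown libraries 1 to 3, against 4268, 4628 and 4570 CPM in control libraries 1 to 3 (log2 fold change -0.72). As for Sncg, knockdown library 2 was the highest of the knockdown libraries. Gch1, an enzyme of tetrahydrobiopterin synthesis, fell by 0.95 (log2), Aldh1a1, which detoxifies dopamine aldehyde, by 0.79 and Ppp2ca, a phosphatase catalytic subunit, by 0.51. With total-count scaling 7 were lower and 1 was higher. With the scaling to pan-neuron markers 3 were lower, Th (-0.18) and Ppp2ca (-0.14) not among them, and 2 higher. Of all 16766 tested genes, 972 were lower and 2769 higher with total counts, and 361 and 5279 with pan-neuron scaling. Whether the genes of dopamine handling differ from Sncg in their change was not tested.

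Genes linked to the phosphorylation and clearance of synucleins were called at shares near those of all genes. Of 27 tested genes, 4 fell, 3 rose and 20 did not pass (14.8% lower and 11.1% higher, against 12.6% and 8.48% of all genes), with a median of -0.13. Among the Polo-like kinases, of which Plk2 phosphorylates a serine of the C-terminal region in the family, Plk2 had 34.0, 37.0 and 51.9 CPM in knockdown libraries 1 to 3, against 18.7, 30.2 and 28.2 CPM in control libraries 1 to 3 (log2 fold change 0.68, adjusted p = 0.0233 by edgeR). Every knockdown library was above every control library, but the call was lost without knockdown library 3 (0.48) or control library 1 (0.49). Plk1 fell by 1.01 on the log2 scale, and the casein kinase gene Csnk2a1 by 0.56. The lysosomal proteases cathepsin D (Ctsd, 0.44) and cathepsin B (Ctsb, 0.39) rose, and the deubiquitinating enzyme gene Uchl1 fell (-0.26), a call that was lost without any of 4 single libraries (knockdown 1 or 3, control 2 or 3) with total counts (-0.09), with genes averaging 1 CPM or more (-0.22) and with a robust dispersion (adjusted p = 0.0583 by edgeR), and that turned to 0.11 when scaled to pan-neuron markers. With total-count scaling 2 genes of the list were lower and 7 higher, where 972 of all 16766 tested genes were lower and 2769 higher. With the scaling to pan-neuron markers 1 was lower, Csnk2a1 (-0.20) not among them, and 10 were higher. Of all tested genes, 361 were lower and 5279 higher with that scaling. Without knockdown library 1 or control library 2, 2 genes of the list were lower.

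Axonal genes were compared because gamma-synuclein is an axonal protein that acts on the neurofilament network. Of the 14 tested genes of this list, 7 fell, 1 rose and 6 did not pass, with a median of -0.26. That is 50% lower and 7.14% higher, against 12.6% and 8.48% of all genes. Tubb3, Stmn2, Uchl1, Nefl and Thy1 are also pan-neuron markers, so these counts are not separate from those of the pan-neuron list. Scaling to pan-neuron markers sets these genes partly against themselves. Gap43, a growth cone protein, fell by 0.60 on the log2 scale, Tubb3, the neuronal beta-tubulin, by 0.95, Dst, which links filaments to microtubules, by 0.62 and Basp1, a membrane protein of growing axons, by 0.43. Nefl, the light neurofilament subunit, had 233, 236 and 308 CPM in knockdown libraries 1 to 3, against 181, 209 and 216 CPM in control libraries 1 to 3, and rose (0.36). That call was lost without knockdown library 3 or without any 1 of the control libraries. The neurofilament subunits Nefm (0.31, and -0.01 without knockdown library 3) and Nefh (0.26) did not pass with TMM. Nefh passed with total counts (0.42) and the replicate block. Both passed when scaled to pan-neuron markers (0.69 for Nefm and 0.63 for Nefh). Ina (-0.045) and Prph (0.079), filament genes of the same list, did not pass with TMM. With total-count scaling 4 genes of the list were lower and 2 higher, where 972 of all 16766 tested genes were lower and 2769 higher. With the scaling to pan-neuron markers 1 was lower, Gap43 (-0.24), Dst (-0.26) and Basp1 (-0.06) not among them, and 5 were higher. Of all tested genes, 361 were lower and 5279 higher with that scaling. Without knockdown library 1, 4 genes of the list were lower.

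**Figure D4:**
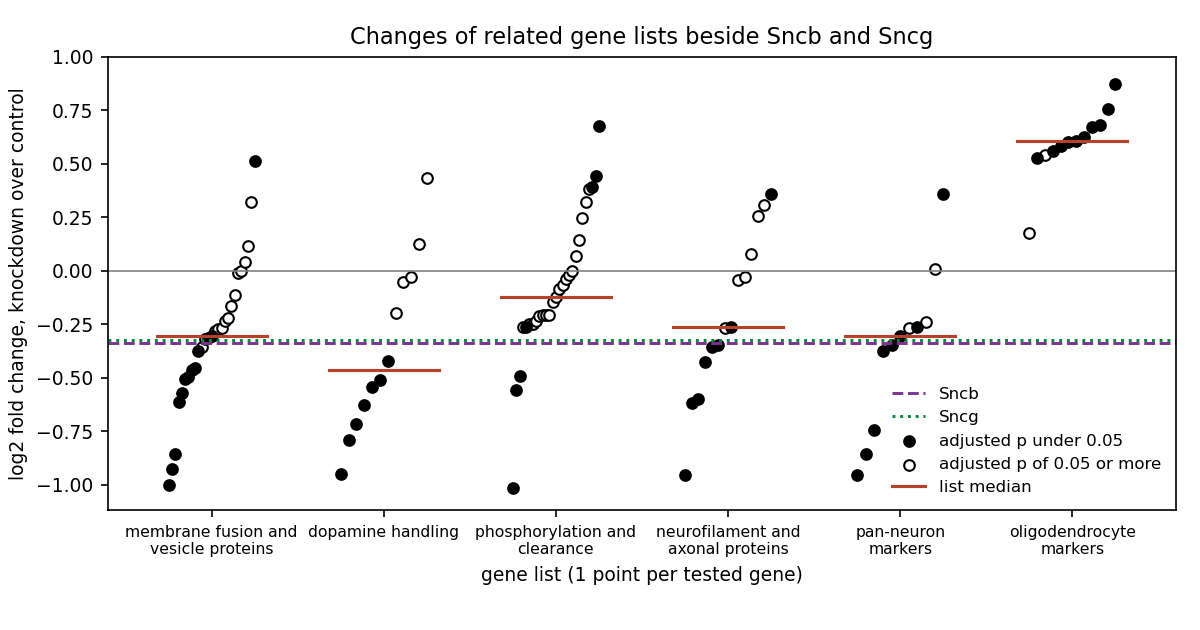
Log2 fold change, knockdown over control (vertical axis), of every tested gene in 6 lists (horizontal axis), filled where the adjusted p is under 0.05, with list medians in red and the values of Sncb and Sncg as dashed and dotted lines. The lines of Sncb and Sncg (-0.34 and -0.33) run close to the medians of the membrane fusion list and the pan-neuron markers (both -0.31), and the oligodendrocyte markers lie above 0.

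Across the 6 libraries, the genes with the profile nearest to Sncg were Hsf1, a heat shock transcription factor, Rnf157, a ubiquitin ligase, Btbd10, Rnps1, a splicing factor, and Tagap1. Nearness was the root mean square difference of log2 CPM centred on the mean of each gene, over the 8730 genes that averaged 10 CPM or more, and it was 0.0232 for Hsf1 and 0.0418 for Tagap1. Their log2 fold changes lay between -0.36 and -0.30, and Rnf157, Rnps1 and Tagap1 passed the test. Since these genes were chosen for their likeness to Sncg in the same libraries, their order of libraries and size of change follow from the choice. The calls for Rnf157 and Tagap1 were lost without any library other than knockdown library 2, and the call for Rnps1 without knockdown library 1 or control library 1 or 2. With total counts (-0.20 to -0.18) or scaled to pan-neuron markers, none of these 3 calls held. That for Tagap1 was also lost with genes averaging 1 CPM or more (edgeR, adjusted p = 0.053). Rnf157, for example, had 215, 274 and 212 CPM in knockdown libraries 1 to 3, against 309.9, 297 and 291 CPM in control libraries 1 to 3. The genes nearest to Sncb were Snapc4, Hipk2, a kinase, Wdr48, Gas8 and Zfp598, at larger distances of 0.0950 to 0.14. Hipk2 (-0.49) and Wdr48 (-0.46) passed the test, though not with total counts (-0.32 and -0.29) or scaled to pan-neuron markers (-0.12 and -0.09). Wdr48 also did not pass with relative log expression scaling (edgeR, adjusted p = 0.0573). Hipk2 did not pass without knockdown library 1 or 3 or control library 1 or 3, and Wdr48 not without any library other than knockdown library 2. Snapc4, Gas8 and Zfp598 passed when knockdown library 2 was left out and in none of the other 5 cases. In the order of these 8730 genes, Sncg was at place 337 from Sncb, and Sncb at place 4294 from Sncg, at a difference of 0.220.

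The genes beside the 2 loci gave no call with all libraries by edgeR and TMM. Gprin1, 8985 bases from Sncb on the same strand, was at -0.35 (adjusted p = 0.103 by edgeR) and passed without knockdown library 3 (-0.46), and Cdhr2 beyond it had a mean of 0.414 CPM in the knockdown group and 1.04 CPM in the control group (adjusted p = 0.0974 by edgeR and 0.0391 by DESeq2). Mmrn2, an endothelial gene that starts 834 bases from Sncg on the opposite strand, had 44, 63 and 36 counts in knockdown libraries 1 to 3, against 69, 58 and 59 counts in control libraries 1 to 3 (adjusted p = 0.71). Bmpr1a, a BMP receptor beyond it, was at 0.17 (0.34 with total counts and 0.54 when scaled to pan-neuron markers, both called), and Fam25c on the other side of Sncg at 0.57 (adjusted p = 0.293). Eif4e1b, the next coding gene above Sncb, had 0, 0 and 8 counts in knockdown libraries and 0 counts in every control library and was not tested. The 2 lncRNA genes that lie nearest to Sncb and Sncg, Gm16249 and Gm41131, were not analysed here.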

How the data were processed

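RNA sequencing counts of 6 libraries were analysed, 3 knockdown and 3 control, grouped and numbered by their titles. The authors deposited whole-number counts per gene, 1 column per library, not normalized; the submitters' processing notes list TopHat2 2.0.8 and build mm10. How reads were counted, by strand or over several alignments, is not stated in those notes. With all libraries, the edgeR 4.0.16 quasi-likelihood F-test (R 4.3.3) was run with TMM scaling and filterByExpr (minimum count 10, minimum total 15), with Benjamini-Hochberg adjustment over 16766 genes at 0.05. CPM values carry the TMM factors, and log2 CPM has a prior count of 0.25. SEs come from the F statistic. Of 23079 gene identifiers, 23008 matched the RefSeq table and 20946 GENCODE M21. Replicate libraries differed by 58.5 to 156 times sampling noise (chi-square per gene), so none was a copy.

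Members, lists and tests were chosen with earlier results of these data known. Named genes were Sncb, Sncg, Satb1, the 5 genes nearest to each member and the 2 annotated neighbours on each side. Up to 4 called genes of each pathway list with the smallest p were also named. Th, Mbp, Syn3, Dnajc5, Plk2, Uchl1, Nefl, Nefm, Nefh, Ina, Prph, Slc1a2, Csf1r, P2ry12, Chat, Slc18a3 and Htr1a were named after their values were seen. The list of axonal genes had 16 symbols, of which 14 had a row. Some genes belong to several lists. The pan-neuron markers include Snap25 and Syt1 of the membrane fusion list and Uchl1 of the clearance list. They also include Tubb3, Stmn2, Uchl1, Nefl and Thy1 of the axonal list. The dopamine neuron markers include Gch1, Slc6a3, Slc18a2, Th, Ddc and Drd2 of the dopamine handling list. Alternatives were relative log expression (RLE), total counts or pan-neuron markers for scaling, DESeq2 1.42.0, limma-voom (limma 3.58.1), keeping genes of any count or those averaging 1 CPM, a robust dispersion, a replicate block and leaving out each library.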

Additional observations from a re-analysis of the deposited data

How the results depend on the processing

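With all libraries kept, Sncb passed in none of 9 other settings (edgeR, DESeq2 or limma-voom) and was lower in 8, and Sncg kept its direction and call in 7 of 9 (relative log expression, DESeq2, limma-voom, both filters, robust dispersion and the block); the exceptions were the scaling to pan-neuron markers (0.03 for each gene) and, for Sncg, total counts (-0.16). Leaving out a library moved Sncb between -0.56 and -0.14, Sncg between -0.43 and -0.26, and the difference in their log2 ratio between -0.13 and 0.13. Genes called higher and lower, 1421 and 2115, were 2769 and 972 with total counts and 5279 and 361 scaled to pan-neuron markers, and 804 to 1356 and 1132 to 2054 without single libraries. Among other named genes, Hsf1 (0.05), Rnf157 (0.00), Btbd10 (0.06), Tagap1 (0.01), Dnajc5 (0.09), Uchl1 (0.11) and Gprin1 (0.02) changed sign with pan-neuron scaling and Nefm without single libraries ranged from -0.01 to 0.48. The cause was not tested. Satb1 kept its call in every setting run.

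Replicate numbers are shared by the groups. Same-numbered libraries correlated by 0.04, 0.01 and 0.09 in their deviations. Knockdown libraries 1 and 3 were nearest to the control of their own number, and knockdown library 2 to control library 1. With 3 libraries a group, this check cannot decide whether libraries of the same number were paired. With the replicate block, Sncb was at -0.36 (edgeR, adjusted p = 0.142), Sncg at -0.33 (adjusted p = 0.00638), and 1924 genes were higher and 2789 lower; in the membrane fusion list 19 genes were lower and in the clearance list 7. With 3 libraries a group, the interval of Sncb, -0.72 to 0.05, is set by the spread between libraries and not by depth.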

Other observations

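Lists of cell types not described above held 3 to 10 tested markers, so each share below rests on 2 called genes or fewer. Called higher were 20% of astrocyte, 10% of microglia, 11.1% of vessel and 20% of ependymal markers, against 8.48% of all tested genes. For cholinergic motor neurons it was 33.3%, for serotonin neurons 25%, and for GABA and glutamate neurons 0%. Called lower were 10% of astrocyte and 20% of microglia markers and 0% of the other lists, against 12.6% of all tested genes. The median log2 fold change was 0.57 for astrocytes, 1.04 for microglia, 0.59 for vessels and 1.19 for cholinergic motor neurons. It was 0.14 for ependyma, -0.19 for serotonin neurons, 0.25 for GABA neurons and 0.08 for glutamate neurons. Of 10 astrocyte markers, 9 had a log2 fold change above 0, 2 rose and 1, the glutamate transporter gene Slc1a2, fell (-0.47; -0.10 and not called when scaled to pan-neuron markers), and their summed level lay between 250 and 254 CPM in knockdown libraries and between 268 and 314 CPM in control libraries, of which Slc1a2 alone averaged 177 CPM in the knockdown group and 245 CPM in the control group. Among microglia markers, Csf1r rose (1.45), while P2ry12 fell (-0.45). The call for Csf1r was lost without knockdown library 1 or 3 or control library 1 or 2, and that for P2ry12 with total counts and without any library other than knockdown library 2. Astrocyte calls for higher genes went to 0 without knockdown library 1 or control library 3 and to 1 without knockdown library 3. Of 6 tested markers of cholinergic motor neurons, Chat, which makes acetylcholine, averaged 8.16 CPM in the knockdown group and 3.57 CPM in the control group and rose (1.20), as did the vesicular transporter gene Slc18a3 (1.18), and the summed level lay between 12.6 and 18.4 CPM in knockdown libraries and between 7.14 and 8.41 CPM in control libraries. The call for Slc18a3 was lost without knockdown library 1 or 3 or control library 2 or 3. Of 4 serotonin neuron markers, the receptor gene Htr1a rose (0.86), a call lost without knockdown library 1 or control library 1. The other markers of that list, Tph2 (-0.12), Slc6a4 (-0.26) and Fev (-0.43), were below 0 and did not pass. Of 9 vessel markers 1 rose, a call lost without 4 of the 6 libraries (knockdown 1 or 3, control 1 or 3). Of 5 ependymal markers 1 rose. Of 3 markers each of GABA and glutamate neurons 0 passed by edgeR, also at an unadjusted p under 0.05, by DESeq2 and by limma-voom. Scaled to pan-neuron markers, 3 GABA neuron markers and 1 of glutamate neurons were called higher, as were 5279 of all 16766 tested genes.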
